A study of Bos indicus with 11 samples.

Results

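The genes described here are 9 interferon-stimulated genes, ISG15, MX1, MX2, IFI6, IFI44, RSAD2, IFIT2, USP18 and IRF9, in the endometrium of cattle. They were taken as the rows of the deposited table whose gene symbol equals one of these names. Each name matched 1 row, which gave 9 of the 24616 genes listed, and all 9 were among the 15081 genes that passed a filter on low values (a mean of at least 5 normalized counts over the cows). RNA-Seq had been performed on biopsies from 11 healthy, multiparous Nelore (Bos indicus) cows. All cows had been synchronized and artificially inseminated (AI), and the biopsy was taken on day 6 after AI from the uterine horn on the side opposite the corpus luteum. The diagnosis on day 30 then divided the cows into 6 pregnant (P) and 5 non-pregnant (NP) cows, and the labels name no other difference between the groups. The group was therefore assigned after the biopsy, and the labels do not say whether an embryo was present in an NP cow on the day of sampling. Each cow gave 1 library and is named by its group and number (P617, NP638).

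Type I interferons bind a receptor made of IFNAR1 and IFNAR2, the kinases JAK1 and TYK2 then pass the signal on, and a transcription factor that contains STAT2 and IRF9 switches on interferon-stimulated genes. The products block viral replication and, in part, dampen the signal again. In ruminants the elongating conceptus secretes interferon tau, the signal of maternal recognition of pregnancy, and genes such as ISG15 and MX1 are well known as endometrial responders to it. Whether their abundance at the time of the biopsy differed between cows later found pregnant or not is the question of the group comparison.

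The depth was between 9290949 and 13569085 reads on genes per cow, with medians of 11559415 in P cows and 10851407 in NP cows. With limma, a linear model fitted gene by gene to log2(normalized count + 1), 0 of the 15081 genes tested differed between the groups at an adjusted p-value under 0.1. Cow P617 stood apart from the other libraries. Its mean log2 level over 16 epithelial markers was 6.73, against 8.67 to 10.30 in the other cows, and its mean over 12 smooth muscle markers was 13.59. Smooth muscle markers were also high in cows P1541 (13.24) and NP638 (12.92), and lay between 10.43 and 12.25 in the other cows. CASQ2 was the marker of these lists that was at 0 in cow P617, and no epithelial or stromal marker was at 0 in any cow. In a biopsy, fewer cells of a type and less RNA per cell cannot be told apart. A list of the study's sequencing runs names cow P617 as non-pregnant while the sample label says pregnant, and the label was followed. Results that rest on cows P617 or NP638 are given with and without them.

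Of the 9 genes, 8 had a higher mean in NP cows and IFI44 had a higher mean in P cows on the log2 scale, but the groups overlapped in all 9 and no gene passed the test. Cow NP638 was the highest of the 11 cows in 8 genes and cow P617 the lowest in 6 genes. Leaving out both cows turned the direction of 6 of the 9 differences. This pair was chosen after the values were seen. It joins the cow highest in most genes, an NP cow, with the cow lowest in most, a P cow. Leaving out such a pair lowers NP minus P differences by construction.

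**Figure D1:**
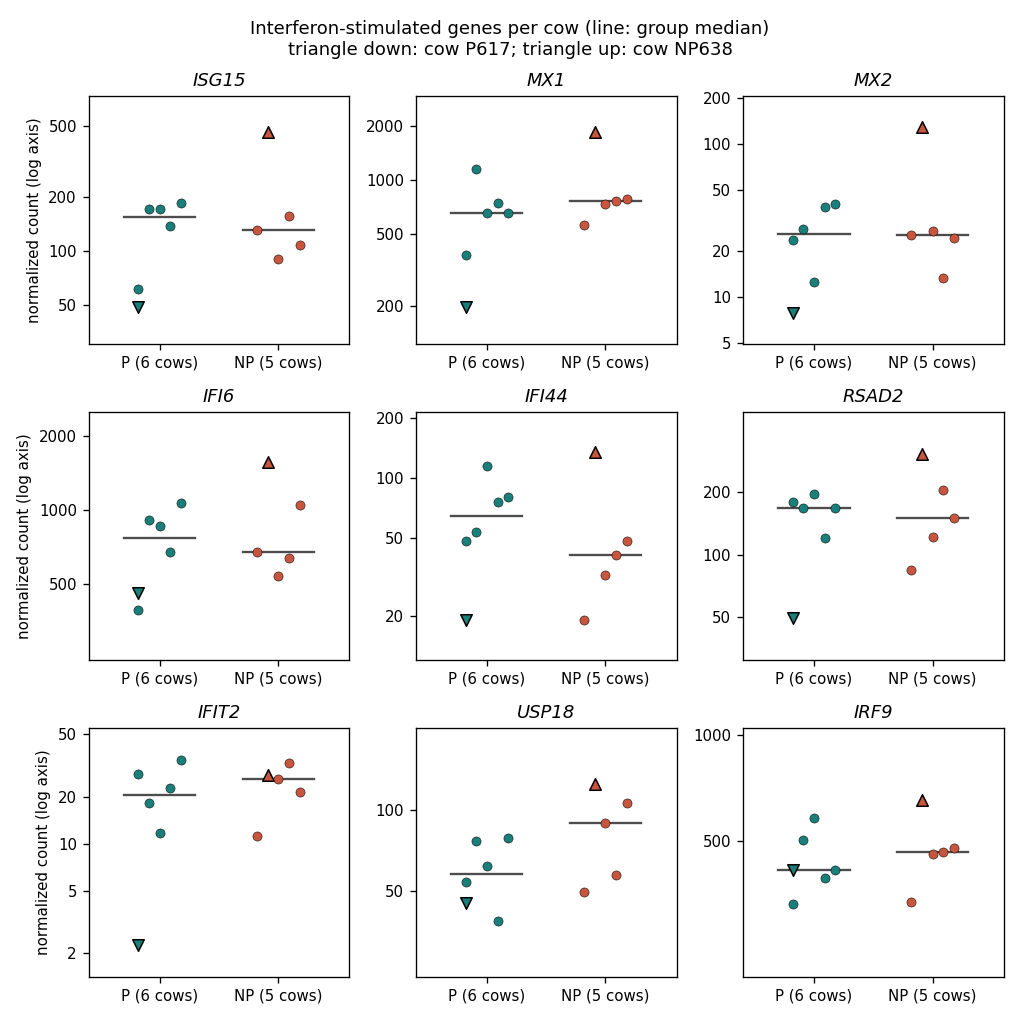
Normalized count (log axis) of each of the 9 genes in each cow, with 1 point per cow, P cows at the left, NP cows at the right and a line at the group median. Cow NP638 (triangle up) is the highest point in every panel but IFIT2, cow P617 (triangle down) is the lowest of all cows in 6 panels, and the groups overlap in each panel.

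IRF9 (ENSBTAG00000005816), the DNA-binding subunit of the transcription factor that contains STAT2, had between 332 and 582 normalized counts in P cows, with a median of 414. Cows NP238, NP638, NP856, NP2541 and NP2810 had 338, 653, 460, 465.8 and 480 normalized counts, and the NP values of the genes that follow are given in the same order. Apart from cow NP638, every NP cow lay within the range of the P cows. The NP minus P difference on the log2 scale was 0.12 (standard error 0.182, 95% confidence interval -0.28 to 0.51), and it was -0.0034 without cow NP638. IRF9 varied least of the 9 genes, with a standard deviation of log2 values over the 11 cows of 0.30, and 66.1% of all genes tested varied more.

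USP18 (ENSBTAG00000016661), a protease that removes ISG15 from proteins and restrains signalling at the interferon receptor, had between 38.8 and 78.5 normalized counts in P cows, with a median of 58.1. In NP cows it had 49.6, 125, 89.3, 57.2 and 106. Cows NP638, NP2810 and NP856 lay above every P cow, and cows NP238 and NP2541 lay inside the P range. The log2 difference of 0.48 (standard error 0.296, 95% confidence interval -0.17 to 1.13) had the smallest p-value of the 9 genes in limma, 0.131, with an adjusted p-value of 0.761. A two-sided exact permutation test, which enumerates the 462 ways to divide 11 cows into groups of 6 and 5 and can reach p = 0.00216 at the least, gave p = 0.134. Without cows P617 and NP638 the difference was 0.26.

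ISG15 (ENSBTAG00000014707), a ubiquitin-like protein that is coupled to other proteins and is also secreted, had between 48.6 and 185 normalized counts in P cows, with a median of 155, and 130, 460, 90.3, 157 and 108 in NP cows. Cow NP638 lay at 460, above the next cow, P1753, at 185, while the other NP cows lay inside the range of the P cows and cows P617 (48.6) and P2396 (61.3) formed the low end. The median of the P cows was thus above 3 of the 5 NP values although the mean was higher in the 5 NP cows, 189 ± 153 (SD), than in the 6 P cows, 130 ± 60.1 (SD). The log2 difference was 0.44 (95% confidence interval -0.61 to 1.49), 0.05 without cow NP638 and -0.19 without cows P617 and NP638.

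MX1 (ENSBTAG00000030913), a dynamin-like GTPase that traps viral particles, had 195 to 1163 normalized counts in P cows, with a median of 659. The NP cows had 561, 1854, 742, 762 and 788. The 4 NP cows other than NP638 lay close together, inside a P range that reached from 195 in cow P617 to 1163 in cow P904. MX1 had the largest difference of the 9 genes, 0.64 on the log2 scale (standard error 0.429, 95% confidence interval -0.30 to 1.57, limma adjusted p = 0.774, exact permutation test p = 0.229). The interval runs from 1.23-fold lower to 2.98-fold higher in NP cows. Without cow NP638 the difference was 0.36, without cow P617 it was 0.34 and without both it was 0.06.

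MX2 (ENSBTAG00000008471), the related GTPase, had 7.91 to 40.3 normalized counts in P cows, with a median of 25.7. Values in NP cows were 25.3, 129, 26.9, 13.3 and 24.5. Cow NP638 had 127 reads of MX2 against 7 to 40 reads in the other 10 cows. The log2 difference of 0.50 (95% confidence interval -0.78 to 1.77) was -0.0045 without cow NP638 and -0.28 without cows P617 and NP638. The MX genes are related copies and the sources used here do not state how reads shared between copies were counted, so the split between them is uncertain.

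RSAD2 (ENSBTAG00000016061), the enzyme viperin, which makes a nucleotide that stops viral RNA synthesis, had 49.7 to 196 normalized counts in P cows, with a median of 168, and 85.0, 305, 122, 205 and 150 in NP cows. In 5 of the 6 P cows RSAD2 lay between 121 and 196, and cow P617 lay far below at 49.7. The log2 difference of 0.22 (95% confidence interval -0.65 to 1.10) became -0.06 without cow P617, -0.02 without cow NP638 and -0.30 without both.

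IFIT2 (ENSBTAG00000034918), an RNA-binding protein that inhibits translation, was the gene in which cow NP638 was not the highest. The P cows had 2.26 to 34.2 normalized counts, with a median of 20.5, and the NP cows had 11.1, 27.4, 25.8, 32.9 and 21.4. Cow P1753 was highest at 34.2, and cow P617 had 2 reads where the other cows had 11 to 42. The log2 difference of 0.52 (95% confidence interval -0.75 to 1.78) was 0.45 without cow NP638, 0.05 without cow P617 and -0.02 without both.

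IFI6 (ENSBTAG00000007554), a small membrane protein known to oppose cell death, had 389 to 1071 normalized counts in P cows, with a median of 767. Values in NP cows were 674, 1573, 539, 639 and 1053. The 2 lowest cows were the P cows P2396 (389) and P617 (459), and cows P1753 and NP2810 lay side by side below cow NP638. The log2 difference of 0.27 (95% confidence interval -0.45 to 0.99) was 0.04 without cow NP638 and -0.07 without cows P617 and NP638.

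IFI44 (ENSBTAG00000034349), a cytoplasmic protein induced by interferon, had 19.2 to 115 normalized counts in P cows, with a median of 64.5, and 19.2, 135, 32.3, 40.8 and 47.9 in NP cows. Cow NP638 was again the highest, but each of the other 4 NP cows lay below every P cow except P617, which was level with cow NP238 at 19.2. This was the only one of the 9 genes with a lower mean log2 level in NP cows, by a difference of -0.37 (standard error 0.524, 95% confidence interval -1.52 to 0.78, limma adjusted p = 0.888, exact permutation test p = 0.526). The difference was -0.77 without cow NP638 and -0.68 without cow P617, but -0.08 without cow NP238 and -0.17 without cow P1541. With leukocyte markers as a covariate, whose levels overlapped little between the groups, it was 0.35. Without cows P617 and NP638 it was -1.07, with an unadjusted p of 0.0119 and an adjusted p of 0.395 in limma, a setting chosen after the values had been seen.

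Over the 9 genes, limma p-values ranged from 0.131 to 0.590 and adjusted p-values from 0.761 to 0.913, and the exact permutation p-values ranged from 0.134 to 0.634. At an adjusted p under 0.1, 0 of the 9 genes were called, against 0% of all genes tested. An unadjusted p under 0.05 was found for 0 of the 9 genes, against 7.84% of all genes tested, and the groups were without overlap in 0 of the 9 genes, against 1.09%. DESeq2 on the recovered reads called 201 genes and 0 of these 9 (smallest adjusted p 0.632), and edgeR called 0 genes. Both tools also gave 0 of the 9 genes at an unadjusted p under 0.05. A higher mean in NP cows was found in 8 of the 9 genes, against 50.2% of all genes tested, with a median difference of 0.44 against 0.0018 over all genes. This count was 5 of 9 without cow NP638, 7 of 9 without cow P617 and 2 of 9 without both, and 9 of 9 with leukocyte markers as a covariate. Leaving out a high NP cow or a low P cow lowers such differences by construction. Leukocyte marker levels, 4.58 to 5.34 in P cows and 5.23 to 6.09 in NP cows, overlapped little. A fit with this covariate therefore separates it poorly from the group. The 9 genes varied together over the cows, so that 8 genes in one direction are not 8 separate observations. The intervals were wide, from 1.68-fold lower to 3.44-fold higher in NP cows for IFIT2 and from 1.22-fold lower to 1.43-fold higher for IRF9.

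**Figure D2:**
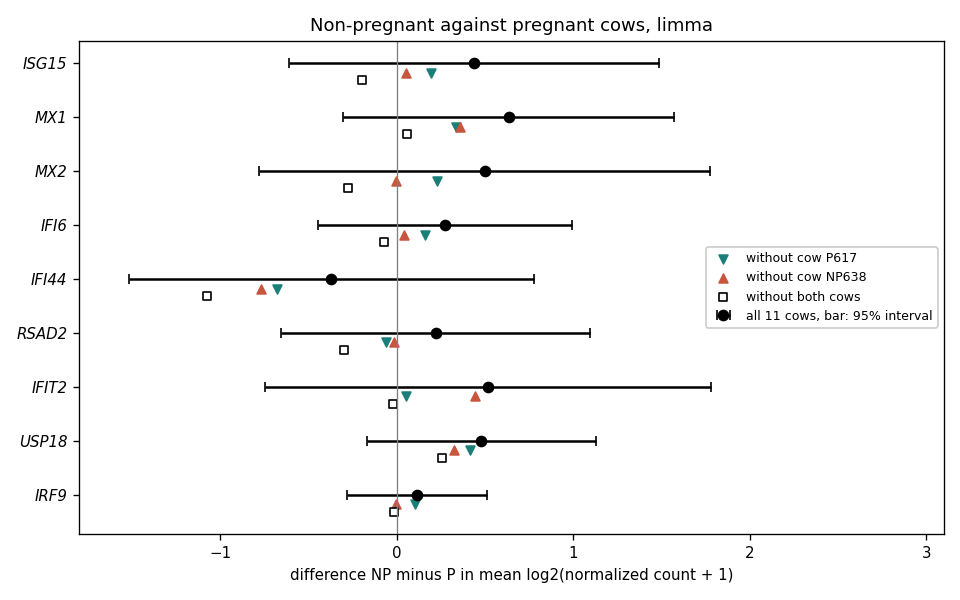
Difference NP minus P in mean log2(normalized count + 1) for each of the 9 genes, with filled circles for all 11 cows and bars for the 95% confidence interval of limma. All 9 bars cross 0, and the open squares, which leave out cows P617 and NP638, lie below 0 for 7 genes.

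Apart from IRF9, the 9 genes varied more between cows than most genes did. The median standard deviation of their log2 values was 0.82, against 0.42 over all genes tested, and reached 1.01 for MX2. Cow NP638 was the highest of the 11 cows in 8 of the 9 genes, against 3.6% of all genes tested. It lay above the median of the other 10 cows in all 9, by a median of 1.22 on the log2 scale, from 0.30 for IFIT2 to 2.33 for MX2. Cow P617 was the lowest in 6 of the 9 genes, against 27.8% of all genes tested, and lay below the median of the other cows in all 9, by a median of -1.58. Cow P617 was also the highest of the 11 cows in 3919 of all genes tested, but in 0 of the 9. An extreme rank in cow P617, low or high, was thus common over the whole table, and a high rank in cow NP638 was not. As the mean log2 level over the 9 genes, cow NP638 was at 8.21 and cow P617 at 5.69. The other 4 NP cows were at 6.52, 6.89, 6.99 and 7.12 and the other 5 P cows between 6.66 and 7.36, which overlap.

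Pearson's correlation across the 11 cows was above 0 for each of the 36 pairs of the 9 genes. It ranged from 0.10 for IFIT2 and IRF9 to 0.88 for ISG15 and MX1, with a median of 0.65, where the median over all 113710740 pairs of genes tested was -0.003. At least 0.7 was reached by 11 of the 36 pairs, against 5.97% of all pairs of genes. In permutation tests with 100000 resamples, 26 pairs had a p-value under 0.1 after the Benjamini-Hochberg adjustment over the 36 pairs. For ISG15 and MX1, r was 0.880 (adjusted p = 0.0228) and Spearman's rho 0.627 (adjusted p = 0.122). For ISG15 and IFI6, r was 0.875 (adjusted p = 0.0194) and rho 0.827 (adjusted p = 0.0943), the one pair past 0.1 by rank. For IFI44 and RSAD2, r was 0.809 (adjusted p = 0.0228) and rho 0.673 (adjusted p = 0.122). By rank the correlations had a median of 0.52, ranged from -0.09 to 0.83, and were above 0 in 35 of the 36 pairs. Centred within the P and NP groups, r had a median of 0.64 and 23 pairs passed, and within the 6 P cows the median was 0.58. MX1 had the highest mean correlation with the other 8 genes, 0.724, followed by ISG15 at 0.699, and IRF9 at 0.534 and IFIT2 at 0.484 had the lowest.

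The correlations were much lower without cows P617 and NP638. These cows had the lowest and the highest mean of the 9 genes. Leaving out such extremes tends to lower r for any genes that vary together. The median r was 0.54 without cow P617, where 5 pairs passed, and 0.49 without cow NP638, where 0 pairs passed. Without both cows the median was 0.17 and r was above 0 in 26 of the 36 pairs, with 0 pairs past 0.1 in exact permutation tests over the 9 cows. ISG15 and IFI6 kept the highest value, 0.759, and these 2 genes also had r = 0.944 within the P cows. Next came MX1 with IRF9 (0.669) and IFI44 with RSAD2 (0.634). MX2 lost its correlation with the other genes, to a mean r of -0.07, and its r with RSAD2 went from 0.564 to -0.481. Leaving out, for each pair, the 2 cows farthest from the median of the first gene gave a median r of 0.22.

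**Figure D3:**
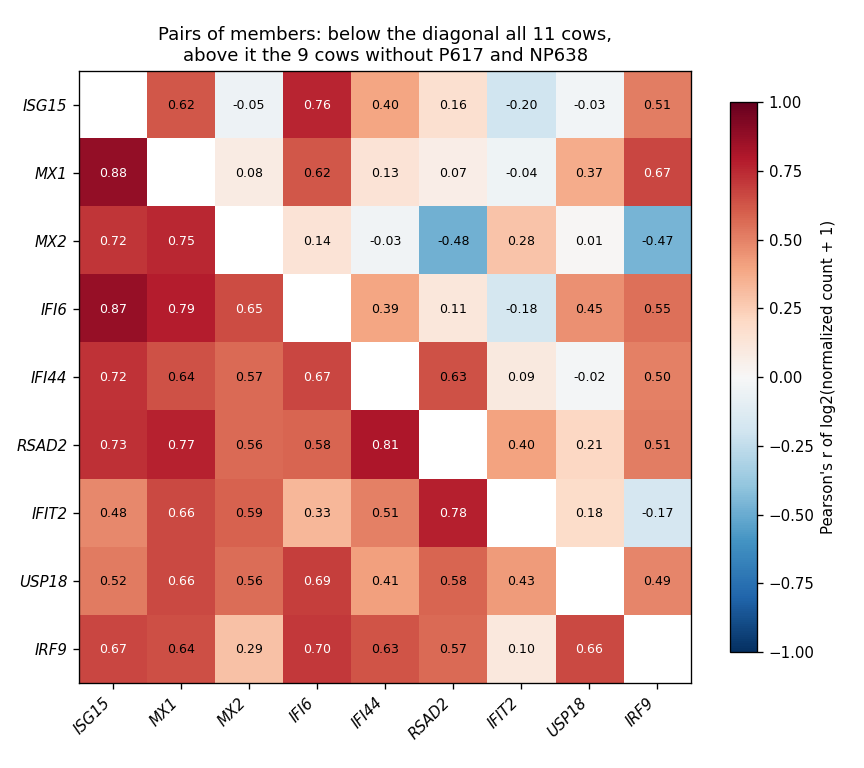
Pearson's r of log2(normalized count + 1) for each pair of the 9 genes, below the diagonal over all 11 cows and above it over the 9 cows without P617 and NP638, coloured from -1 (blue) to 1 (red). Every cell below the diagonal is positive, and above it several cells of MX2 and IFIT2 are below 0 while ISG15 with IFI6 is at 0.76.

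The genes upstream of the 9 were then examined. Interferon ligands were at or near the limit of detection. Of 22 symbols listed, 14 were found in 12 rows, many of them joined names of near-identical copies, and none of these rows passed the filter. In 3 rows there was no read in any cow, where a count of 0 allows up to 3 reads per cow, and 9 of the 12 rows had at most 3 reads in every cow. The highest value was 6 reads (6.85 normalized counts) in cow P1631 for the row named IFNB1 and LOC784249, which had 23 reads in all. The row that joins the interferon tau genes (IFNT, IFNT2, IFNT3 and a further copy) had 17 reads over 9 cows, at most 5 of them in cow P2396, with 0 in cow P617 and 1 in cow NP638. IFNG, interferon gamma, had 2 reads, both in cow NP2541.

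Among 17 genes of the interferon receptors and signalling, 16 had a higher mean in NP cows, against 50.2% of all genes tested. The median log2 difference was 0.15, and 0 genes were at an unadjusted p under 0.05, against 7.84% of all genes tested. IFNAR1, the receptor subunit, had 3015 normalized counts in cow NP638, 813 in cow P617 and at most 2028 in the other cows. Its partner IFNAR2 had 888 in cow NP638, also the highest of the 11 cows, against at most 813 in the others. STAT2 averaged 773 ± 108 (SD) in the 6 P cows and 840 ± 51.8 (SD) in the 5 NP cows, and cow NP638, at 834, lay inside the range of the others. Cow NP638 was the highest in 4 of the 17 genes and lay a median of 0.02 above the other cows. Cow P617 was the lowest in 7 of the 17 and the highest in 4, at a median of -0.10.

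Among 17 genes of nucleic acid sensing and interferon induction, 14 had a higher mean in NP cows, against 50.2% of all genes tested, with a median of 0.14. TLR7, a receptor for viral RNA inside endosomes, averaged 28.4 ± 11.4 (SD) normalized counts in the 5 NP cows and 11.9 ± 2.66 (SD) in the 6 P cows. Its log2 difference was 1.12 (limma adjusted p = 0.371). It was the single gene of this list at an unadjusted p under 0.05 in limma, and 1 of 17 is not above the 7.84% of all genes tested. It was also the single one that DESeq2 called, where DESeq2 called 201 of all 15081 genes tested. In cow NP638 TLR7 had 14.2 normalized counts, the lowest value of the NP cows and below the 14.7 of cow P617. IRF7, the factor that amplifies interferon production, had a log2 difference of 0.64 (limma adjusted p = 0.660), with 87.0 normalized counts in cow P617 and 334 in cow NP638.

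A further 59 interferon-stimulated genes were listed from general knowledge, of which 53 were found in 55 rows and 54 rows were tested. A higher mean in NP cows was found in 49 of the 54, against 50.2% of all genes tested. The median log2 difference was 0.36, and 0 passed at an adjusted p under 0.1. Of the 54, 19 had an r of at least 0.7 with the mean of the 9 genes, so the 49 are not separate observations. An unadjusted p under 0.05 was found for 4 of the 54, all with a higher mean in NP cows, which is close to the share of all genes tested in either direction (7.84%) and with a higher mean in NP cows (5.49%). LGALS9, a lectin that binds T cells, had a log2 difference of 0.73 (limma adjusted p = 0.467), and IRF1, a transcription factor induced by interferon gamma, had 0.63 (limma adjusted p = 0.514). The row of RTP4 and LOC100851529 had 0.98 (limma adjusted p = 0.459) and SAMD9, an antiviral protein, had 0.99 (limma adjusted p = 0.630). The largest difference of the list was 1.74 (standard error 1.33) for a row joining GBP4 and LOC507055 (ENSBTAG00000038233), which had a read in only 9 of the 11 cows. A second row with these names (ENSBTAG00000014529) had 1.15, and 0.35 without cow P617. The lowest difference was -0.21 for PNPT1. Without cows P617 and NP638, 39 of the 54 had a higher mean in NP cows, and without cow P1541 as well 32 did. Endothelial markers were higher in NP cows in 10 of 10 genes. Of these, 9 were at an unadjusted p under 0.05, against 7.84% of all genes tested, and 0 at an adjusted p under 0.1 (smallest 0.330 in limma). Mean log2 levels were 8.60 to 10.17 in P cows and 9.57 to 10.39 in NP cows. Of 17 leukocyte markers 16 were higher in NP cows. An unadjusted p under 0.05 was found for 6 and an adjusted p under 0.1 for 0 (smallest 0.368 in limma). Levels over these 17 were 4.58 to 5.34 in P cows and 5.23 to 6.09 in NP cows. The listed markers MS4A1, CD79B and NCR1 were at 0 in at least 1 cow. They did not pass the filter and are not part of the 17 or of the levels. With leukocyte markers as a covariate 44 of the 54 had a higher mean in NP cows, and the part of endothelial cells was not tested. Stromal markers were higher in NP cows in 9 of 9 genes, with a median log2 difference of 0.58. Of these, 2 were at an unadjusted p under 0.05 and 0 at an adjusted p under 0.1 (smallest 0.554 in limma). The groups were without overlap in 1, against 1.09% of all genes tested. Smooth muscle markers were higher in P cows in 11 of 12 genes, with a median of -1.32, and 0 passed at an adjusted p under 0.1. With these markers as a covariate 46 of the 54 had a higher mean in NP cows. Markers of one list can vary together, so these counts are not counts of separate observations.

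Cow NP638 was the highest of the 11 cows in 22 of the 54 and lay above the median of the other cows in 44. Among the genes highest there, IFIT1 had 204 normalized counts in cow NP638 against at most 87.0 in the others, OAS2 had 48.7 against at most 11.8, and the row of OAS1Z and OAS1X had 325 against at most 122. OASL, at 1.01 normalized counts in cow NP638, lay below the median of the other cows by a log2 difference of -1.32. The median of the 54 genes in cow NP638 was 0.43 above the other cows, less than the 1.22 of the 9 genes. Cow P617 was the lowest in 29 of the 54, at a median of -0.86, yet IFIT5 (2137 normalized counts) and UBE2L6 (924), the enzyme that passes ISG15 on to its targets, were at their highest of all cows there, and so was IFIT3 (310). The members of the OAS, IFIT, IFITM and GBP families have close copies, and their counts are uncertain.

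**Figure D4:**
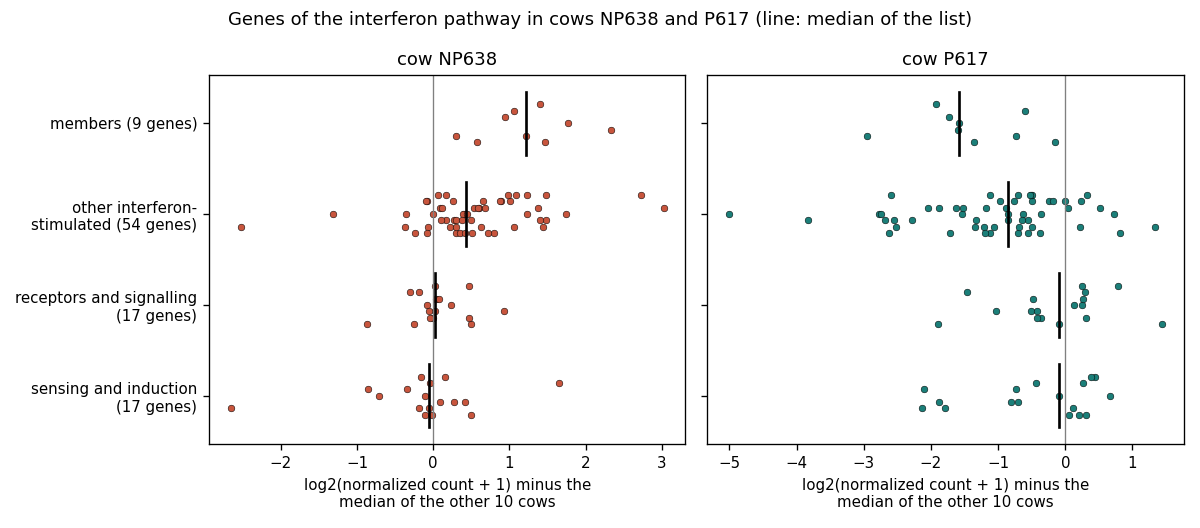
Log2(normalized count + 1) in cow NP638 (left) and cow P617 (right) minus the median of the other 10 cows, with 1 point per gene for the 9 genes (members), the 54 other interferon-stimulated genes, 17 receptors and signalling genes and 17 sensing and induction genes, and a line at each list's median. The medians in cow NP638 are 1.22, 0.43, 0.02 and -0.06, and in cow P617 they are -1.58, -0.86, -0.10 and -0.09.

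The genes most like the 9 were sought by Pearson's r with the mean of their standardized log2 values over the 11 cows, as a description. At least 0.7 was reached by 19 of the 54 other interferon-stimulated genes (35.2%), and by 0.617% of all genes tested. The 10 most alike genes with a symbol were OAS1Y (r = 0.946), IFNAR1 (0.937), a row of BST2 (ENSBTAG00000045588, 0.922), IFI27 (0.896), the row of RTP4 (0.864), FOXC2 (0.858), EIF2AK2 (0.857), LMO1 (0.850), TAF7L (0.842) and FHL5 (0.841). The other row of BST2 (ENSBTAG00000008021) had an r of 0.591, with 76.1 normalized counts in cow NP638 and its highest value, 76.5, in cow P1753. OAS1Y, an enzyme that senses double-stranded RNA, ranged from 66.6 normalized counts in cow P617 to 1132 in cow NP638. IFI27 ranged from 28.2 to 1049 in the same cows. All 10 were at their highest in cow NP638, but the mean of the 9 genes was highest there too, so a choice by r favoured such genes. Without cows P617 and NP638 the r of OAS1Y was 0.840, that of this first row of BST2 0.822, that of IFI27 0.777 and that of IFNAR1 0.679. It was 0.588 for LMO1, 0.516 for RTP4, 0.421 for FOXC2, 0.415 for TAF7L, 0.352 for FHL5 and 0.268 for EIF2AK2. FOXC2, LMO1 and TAF7L had their lowest value, 1.13 normalized counts or 1 read, in cow P617, and medians of 8.75, 16.1 and 10.1. At the other end of the list of 54 were UBE2L6 (-0.17), TDRD7 (-0.16) and OASL (-0.11).

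Finally, the mean of the 9 genes was set beside the levels of cell type markers and depth, again as a description over the 11 cows. Pearson's r was 0.859 with the mean of the 54 other interferon-stimulated genes (rho 0.691), and 0.426 without cows P617 and NP638. With smooth muscle markers r was -0.07 (rho 0.05), although the highest and the lowest cow of the 9 genes, NP638 and P617, were both high in these markers. Without cow P617 it was 0.49 and without cow NP638 it was -0.40. With epithelial markers r was 0.51 (rho 0.07) and turned to -0.37 without cow P617. With endothelial markers r was 0.59 (rho 0.37), and 0.31 without cow P617. With stromal markers, leukocyte markers and reads on genes r was -0.07, -0.02 and -0.21 (rho -0.13, -0.08 and -0.05). Of 54 relations of a single gene with one of the 5 marker levels or with reads on genes, 0 had an adjusted p under 0.1 in permutation tests by r or by rho. The r values of the 9 genes with endothelial markers were all above 0, from 0.14 to 0.75, although rho was -0.08 for IFI44. With epithelial markers 8 of the 9 r values were above 0, from -0.21 to 0.84. The 9 genes varied together, so signs shared by them are not separate observations.

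**Figure D5:**
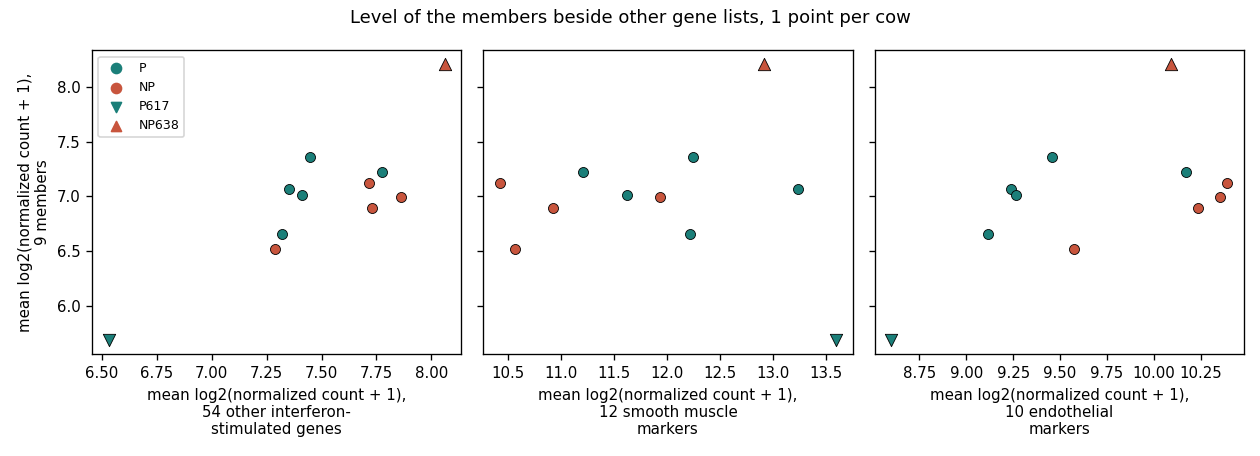
Mean log2(normalized count + 1) of the 9 genes (members) in each cow against the mean of 54 other interferon-stimulated genes (left), 12 smooth muscle markers (middle) and 10 endothelial markers (right), with P cows in green and NP cows in red. Cow NP638 (triangle up, 8.21) and cow P617 (triangle down, 5.69) are the extremes of the vertical axis in each panel, and the P and NP cows between them overlap.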

How the data were processed

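RNA-Seq was analysed in endometrial biopsies from 6 P and 5 NP cows. Per the labels and the study's methods, the authors mapped paired-end reads to UMD3.1 with Bowtie2 2.1.0, counted them per gene with HTSeq 0.5.4p2 and divided the counts by DESeq2 1.12.1 size factors. The annotation and the use of strand are not given in the sources used here. The authors deposited 1 table of these normalized counts (a signal at or above 0) with 1 column per cow and 0 columns left unused. In each cow 100% of the values were whole multiples (within 0.001) of what 1 read was worth, 0.784 to 1.14, so that reads could be recovered.

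The 15081 genes whose mean reached 5 were compared with limma 3.58.1 (trend) in R 4.3.3 on log2(value + 1), a scale that understates changes of low genes, with the Benjamini-Hochberg adjustment over all of them. The alternatives were edgeR 4.0.16, DESeq2 1.42.0 and voom on the reads, TMM, other pseudocounts and filters, marker covariates and leaving out cows. Single genes and pairs were also compared by permutation. A p-value planned for the mean over the 9 genes against marker levels was not computed. The fits were tested on simulated data.

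The 9 genes and the lists were chosen with earlier results of these data known. By rule the text names the 9 genes, listed genes at an unadjusted p under 0.05, the extremes of a list, genes whose role is needed and the 10 most alike genes. The lowest r values of the list of 54 and the genes singled out in cows P617 and NP638 were chosen after their values were seen. No sequence or genome position is printed, since the gene table used for names is of another assembly. The values of 1 gene of the signalling list are not reported here.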

Additional observations from a re-analysis of the deposited data

Results flagged for a closer look

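In 4 of the 32 groups of cows examined, over the 9 genes, the other lists and the marker levels, 1 cow lay far from the others by Dixon's ratio, its gap to the nearest cow divided by the range of the group. By chance about 1 group in 20 is marked this way, and over all genes tested 7.75% were marked in P cows and 5.94% in NP cows. MX1 was marked in NP cows for its high value in cow NP638, with a ratio of 0.716. RSAD2 was marked in P cows for its low value in cow P617, with a ratio of 0.646. The mean of the other interferon-stimulated genes was marked in P cows, again low in cow P617, with a ratio of 0.634. The mean of the epithelial markers was marked in NP cows, low in cow NP638, with a ratio of 0.738.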

How the results depend on the processing

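Under 24 alternatives for each of the 9 genes, 0 had an adjusted p under 0.1 (smallest 0.395, for IFI44 without cows P617 and NP638). MX1 and USP18 kept their direction in all 24. Other tests, TMM, pseudocounts and filters reversed 0 of the 9, and the rest follows. Differences are NP minus P on the log2 scale. Leaving out each cow in turn gave -0.0045 to 0.79 for MX2, -0.0632 to 0.44 for RSAD2 and -0.0034 to 0.23 for IRF9, the negative values coming without cow NP638 (RSAD2 -0.02) or, for RSAD2, cow P617. The range was 0.05 to 0.63 for ISG15, 0.34 to 0.85 for MX1, 0.04 to 0.43 for IFI6, -0.77 to -0.08 for IFI44, 0.05 to 0.75 for IFIT2 and 0.32 to 0.65 for USP18. It gave 5 to 8 of the 9 genes with a higher mean in NP cows, 0 to 1 at an unadjusted p under 0.05 (USP18 without cow NP238), 3 to 10 of the 54 other interferon-stimulated genes (10 without cow P904), 0 to 2 receptor and signalling genes and 1 to 3 sensing genes at that p, and 0 to 25 pairs past an adjusted p of 0.1. The share of all genes tested at that p can change with the setting and is not given for the settings of this section. Its counts of genes at that p are therefore not read as results about the lists. The r of the mean of the 9 genes ranged from -0.37 to 0.76 with epithelial and from 0.31 to 0.64 with endothelial markers. Without cows P617 and P1541, MX2 was at -0.028 and IFIT2 at -0.16, 5 pairs passed, 2 receptor and signalling and 2 sensing genes were at an unadjusted p under 0.05, and r was 0.60 with smooth muscle markers, -0.49 with epithelial markers and 0.0204 with reads on genes. Without cows P617, P1541 and NP638, the differences were -0.11 for ISG15, -0.53 for MX2, -0.0183 for IFI6, -0.24 for RSAD2 and -0.23 for IFIT2. There 3 of the 9 and 32 of the 54 genes had a higher mean in NP cows, 1 of the 9, 1 of the 54, 2 receptor and signalling and 3 sensing genes were at an unadjusted p under 0.05, the median r was 0.25 and 1 pair passed. Without cows P617 and NP638, a choice made after the data were seen, the differences were -0.19 for ISG15, -0.28 for MX2, -0.0728 for IFI6, -0.30 for RSAD2, -0.0197 for IFIT2 and -0.0158 for IRF9. In that setting 2 of the 9 genes had a higher mean in NP cows, 1 of the 9, 2 of the 54, 2 receptor and signalling and 4 sensing genes were at an unadjusted p under 0.05, the median r was 0.17 and 0 pairs passed. Without a share of all genes at that p in the same setting, neither these counts nor those just before can be judged. With leukocyte markers as a covariate IFI44 was at 0.35, ISG15 at 1.23, MX1 at 0.88, MX2 at 1.14, IFI6 at 0.44, RSAD2 at 0.71, IFIT2 at 1.08, USP18 at 0.33 and IRF9 at 0.10, with adjusted p-values in limma from 0.797. Leukocyte marker levels overlapped little between the groups, so this fit separates covariate and group poorly. With smooth muscle markers as a covariate IFIT2 was at 0.21, IFI44 at -0.11, RSAD2 at 0.34 and IRF9 at 0.27. Sensing genes at an unadjusted p under 0.05 were 2 with smooth muscle markers as a covariate, 2 with limma-voom and 0 with a minimum mean of 20, which drops TLR7. DESeq2 called 1 of them, TLR7, among 201 of all genes tested. With the median over the leukocyte markers r was 0.16. The causes of these changes were not tested. No paired analysis was possible because the groups share no replicate number. With 6 cows against 5, and with cow P617's label in doubt, differences of the size of the intervals could not be resolved, and for MX2 and IFIT2, at 2 to 127 reads per cow, counting error adds to the spread.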
